A study of Mus musculus with 39 samples.

Results

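The transcription factor ATF4 is known to drive a set of genes that make and import amino acids, and 10 of these genes were followed here in sorted mouse lung cells. They are Asns, Phgdh, Psat1, Psph, Shmt2, Mthfd2, Aldh18a1, Pycr1, Slc7a5 and Slc3a2, chosen by name and matched by symbol to 10 of the 43430 rows of the deposited count table. RNA sequencing of 39 libraries covered lung monocytes sorted from naive C57BL/6J mice (20 libraries) and alveolar macrophages with low Siglec F, described as monocyte-derived, sorted on day 21 after bleomycin (19 libraries). Bleomycin is a chemotherapy agent used to cause lung scarring in mice. Each kind of cell came from 2 ages under 2 treatments, saline and ISRIB (an inhibitor of the integrated stress response), so that there were 8 groups. Each group had 5 libraries except young ISRIB macrophages, which had 4. The sample labels give the ages as 8 to 12 weeks and above 18 months, but the design text of the series has 3 to 5 for the young and 18 to 24 for the old, in months. Injections were intraperitoneal and daily from day 7 in the bleomycin mice, and no timing is given for the naive mice. Every macrophage library came from an injured lung and every monocyte library from an uninjured one, so cell type and bleomycin cannot be told apart. The labels do not say whether replicates were single animals, so p-values measure the spread between these libraries.

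The integrated stress response lowers general protein synthesis through phosphorylation of the initiation factor eIF2 and at the same time favours translation of the ATF4 mRNA. ATF4 then binds C/EBP-ATF response elements in genes for amino acid uptake and synthesis, among them the serine pathway, the mitochondrial one-carbon pathway, proline synthesis, asparagine synthetase and the large neutral amino acid transporter. ISRIB acts on eIF2B, the exchange factor that phosphorylated eIF2 inhibits. Serine and glycine feed nucleotide and glutathione synthesis, and proline is abundant in collagen. ATF4 itself is controlled largely at translation, so its mRNA level need not follow its protein.

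The core of the response element, TGATGNAA, was searched on both strands of 300-base windows (250 bases before to 50 after each start, RefSeq, GRCm38.p6), which were available for 9 of the 10 genes. It was present in the windows of Asns and Pycr1, 2 of 9 genes, and in 3.97% of 32851 promoters of the same length. The first count is of genes and the second of windows. Psat1 had 2 windows, neither with the core. No other motif was searched. These 2 stretches are shown with the match in capitals, 5′ to 3′ on the minus strand, because they are the only windows of the set that hold it. That of Asns lies at chr6:7693214-7693243, and the match runs from 23 to 16 bases before the RefSeq start, inside the GENCODE span of the gene. That of Pycr1 lies at chr11:120643833-120643862, outside the GENCODE span, and the match runs from 103 to 96 bases before the start.
Asns: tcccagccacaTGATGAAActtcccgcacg
Pycr1: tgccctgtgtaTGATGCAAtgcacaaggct
The upstream stretch of Phgdh is shown because it is the gene of the set whose level differed with age in macrophages, when saline and ISRIB were averaged. It covers the 229 bases before both annotated starts, chr3:98339991-98340219, minus strand, and these letters do not include the core.
Phgdh: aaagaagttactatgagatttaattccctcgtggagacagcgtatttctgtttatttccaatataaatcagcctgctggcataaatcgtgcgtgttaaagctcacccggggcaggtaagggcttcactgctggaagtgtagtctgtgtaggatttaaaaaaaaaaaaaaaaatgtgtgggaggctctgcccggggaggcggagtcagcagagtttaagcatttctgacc

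Library totals ran from 4595331 to 16056708 counts, with 12324 to 17313 genes detected per library. Siglecf and Ly6c2 separated the sorts: Siglecf was 47.2 to 156 CPM (counts scaled to a common library size) in the macrophage libraries and at most 1.56 CPM in the monocytes, and Ly6c2 was 266 to 654 CPM in the monocytes and at most 7.58 CPM in the macrophages. Marker sums were less sharply apart. Macrophage markers summed to 3929 to 5840 CPM in macrophages and 342 to 659 CPM in monocytes. Monocyte markers summed to 4614 to 8095 CPM in monocytes and 181 to 777 CPM in macrophages. Markers of other cells varied between libraries. The summed level of 7 B cell markers was 6.30 to 30.1 CPM in young macrophages, 22.5 to 427 CPM in old saline macrophages and 152 to 590 CPM in old ISRIB macrophages. The summed level of 7 proliferation genes was 91.5 to 504 CPM in macrophages and 21.1 to 63.4 CPM in monocytes. Old ISRIB monocyte replicate 5 had 79.1 CPM of epithelial markers, and the other monocyte libraries had at most 15.02 CPM. Levels below are CPM scaled by the trimmed mean of M values (TMM) over all 39 libraries, and log2 changes come from the quasi-likelihood test of edgeR, with a gene called when its adjusted p was under 0.05.

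**Figure D1:**
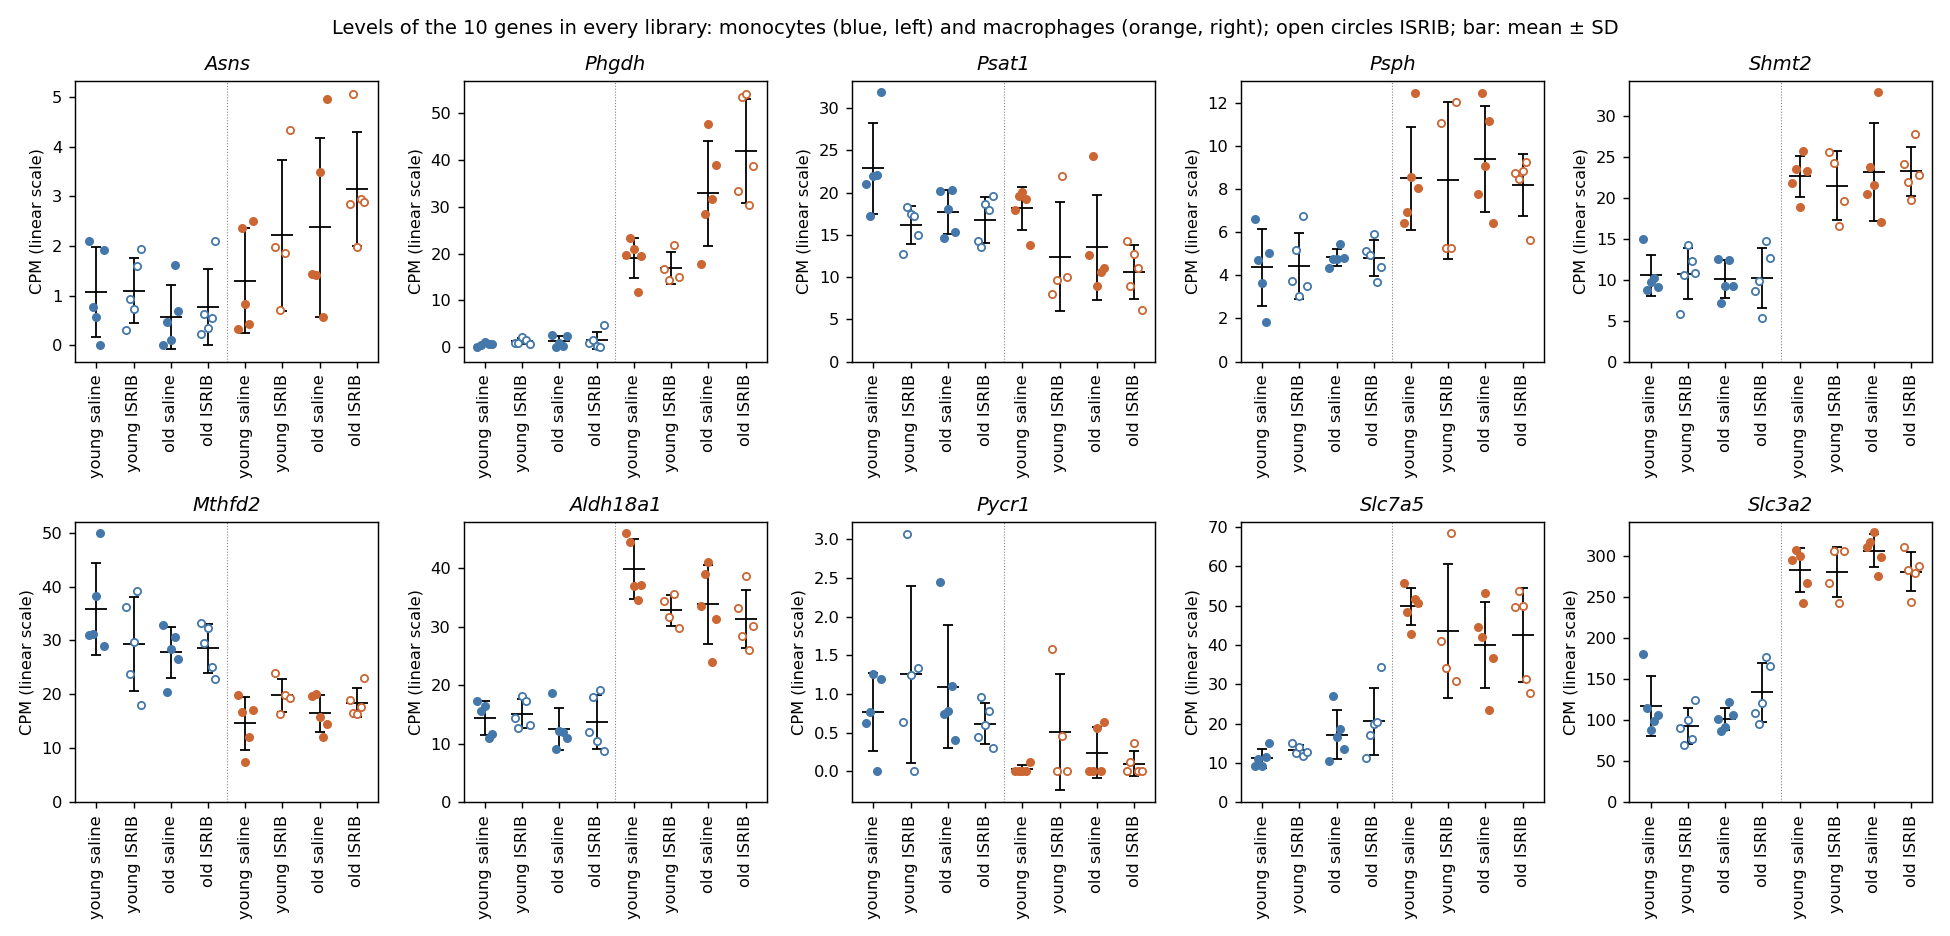
CPM of the 10 genes in every library (linear axes from 0), with monocyte groups in blue on the left and macrophage groups in orange on the right of each panel, open circles for ISRIB and bars for the mean ± SD of each group. Phgdh is at most 4.68 CPM in monocytes and 11.9 to 54.1 CPM in macrophages, and Pycr1 is at most 3.06 CPM anywhere.

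Compared per length (CPM per kilobase of annotated exon), Slc3a2 was the most abundant of the set in all 8 groups, and it did not overlap the next gene in any of them. Slc3a2 encodes the heavy chain of CD98, the partner that brings several light-chain transporters to the cell surface. Its mean level was 80.0 ± 7.58 CPM per kb (SD, n = 5) in young saline macrophages and 33.3 ± 10.3 (SD, n = 5) in young saline monocytes. The order below it differed between the cell types. In young saline macrophages it was followed by Slc7a5 at 13.5 ± 1.28 CPM per kb (SD, n = 5), Aldh18a1 at 9.78 ± 1.26, Phgdh at 7.65 ± 1.71 and Shmt2 at 7.29 ± 0.802 (SD, n = 5 each). Aldh18a1 overlapped Phgdh and Phgdh overlapped Shmt2, while Slc7a5 lay above them all. Phgdh moved to the second place in old saline macrophages, at 13.2 ± 4.53 CPM per kb (SD, n = 5), and in old ISRIB macrophages, at 16.9 ± 4.48 (SD, n = 5), where it overlapped Slc7a5 in both. In monocytes the second place belonged to Mthfd2 in all 4 groups, with means of 7.97 to 10.3 CPM per kb, and it overlapped the next gene, Slc7a5, in both old groups. Phgdh, Asns and Pycr1 filled the last 3 places in every monocyte group, with means of 0.157 to 0.608 CPM per kb.

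Phgdh (chromosome 3, 98313170 to 98339990; positions are those of GENCODE vM21 in GRCm38, and all 10 genes lie on the minus strand), which encodes the enzyme that commits glucose carbon to serine, was the gene of the set that differed most between groups. It was higher in macrophages than in monocytes, and higher in old than in young macrophages. In young saline macrophages its level was 19.6, 23.2, 20.9, 11.9 and 19.4 CPM in replicates 1 to 5. In young ISRIB macrophages it was 16.8, 14.4, 21.8 and 14.9 CPM in replicates 1 to 4. The young groups overlapped each other, and their means were 19.01 ± 4.26 CPM under saline (SD, n = 5) and 16.97 ± 3.39 CPM under ISRIB (SD, n = 4). In old saline macrophages it was 17.7, 28.5, 47.7, 31.6 and 38.8 CPM in replicates 1 to 5. In old ISRIB macrophages it was 33.4, 53.3, 54.1, 30.4 and 38.6 CPM in replicates 1 to 5. Of the old saline libraries only replicate 1 fell within the young range, and all 5 old ISRIB libraries lay above all 4 young ISRIB libraries. The old means were 32.9 ± 11.3 CPM and 42.0 ± 11.1 CPM (SD, n = 5 each). Phgdh-ps1, an annotated processed pseudogene on chromosome 7, was not analysed here. In bulk samples a different share of cells and a different amount of RNA per cell cannot be told apart.

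Between old and young macrophages averaged over saline and ISRIB, the increase of Phgdh was 1.05 ± 0.16 (log2, SE; edgeR adjusted p = 3.00e-04, 19 libraries). Of 9 members tested in macrophages it was the 1 member called, against 4.86% of 12171 genes in either direction (3.12% higher and 1.74% lower). Under ISRIB alone the age difference was 1.31 ± 0.24 (log2, SE; edgeR adjusted p = 0.00622), again the 1 member called of 9, against 0.937% of all genes (0.444% higher and 0.493% lower). That call was lost when all 39 libraries shared 1 fit (edgeR adjusted p = 0.205). Under saline alone it was 0.79 ± 0.22 (log2, SE; edgeR adjusted p = 0.0757), and 0 of 9 members were called against 1.16% of all genes. The saline value passed the threshold in DESeq2 (adjusted p = 0.0247) and, in edgeR, with no filter on low counts (adjusted p = 8.55e-04) or without old saline replicate 1 (adjusted p = 0.0148). It did not pass in limma voom or without any other single library. The age effect was not shown to differ between the treatments: the difference of the ISRIB effect between old and young macrophages was 0.52 ± 0.32 (log2, SE, edgeR adjusted p = 0.965). There edgeR, DESeq2 and limma voom each called 0 of 9 members, against 0% of all genes by edgeR. At an unadjusted p under 0.05 by edgeR there were 0 members, against 621 of 12171 genes.

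Markers of other cells moved with age in the same libraries, and their part in the Phgdh difference was not tested. Over the 19 macrophage libraries Phgdh had r = 0.79 with the summed B cell markers (rho = 0.73, and r = 0.73 without the 2 libraries farthest from the median), r = 0.79 with T and NK cell markers and r = -0.77 with monocyte markers, given as a description of libraries that share age groups. Of the 7 B cell markers 7 were tested and 7 were higher in old macrophages in the averaged contrast. Of 4 tested T and NK cell markers 1 was higher, and of all genes 3.12% were. The 3 old macrophage libraries with over 300 CPM of B cell markers were saline replicate 5 and ISRIB replicates 3 and 5, with Phgdh at 38.8, 54.1 and 38.6 CPM. Without these 3 libraries the averaged age change of Phgdh was 0.96 (log2, edgeR adjusted p = 0.00537), the ISRIB value was 1.20 (edgeR adjusted p = 0.0808) and the saline value was 0.72 (edgeR adjusted p = 0.234). The old libraries kept, other than saline replicate 4, still had 102 to 217 CPM of B cell markers, above the young maximum of 30.1 CPM. This omission therefore cannot separate age from B cell markers. Old saline replicate 4 had the lowest B cell sum of its group, 22.5 CPM, within the young range of 6.30 to 30.1 CPM, and a Phgdh level of 31.6 CPM, above every young library. In other markers it lay outside the young range. It had 278 CPM of monocyte markers, below all young macrophages, and 3.86 CPM of T and NK cell markers, above the young maximum of 3.53 CPM. Monocyte libraries had 133 to 282 CPM of B cell markers, mostly Ighm, with Phgdh at 0 to 4.68 CPM. Jchain, a marker of antibody-secreting cells, was 4.53 to 34.7 CPM in old ISRIB macrophages, 0 to 21.3 CPM in old saline macrophages, at most 0.441 CPM in young macrophages and at most 8.68 CPM in monocytes. Monocyte markers summed to 351 to 777 CPM in young and 181 to 438 CPM in old macrophages.

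**Figure D2:**
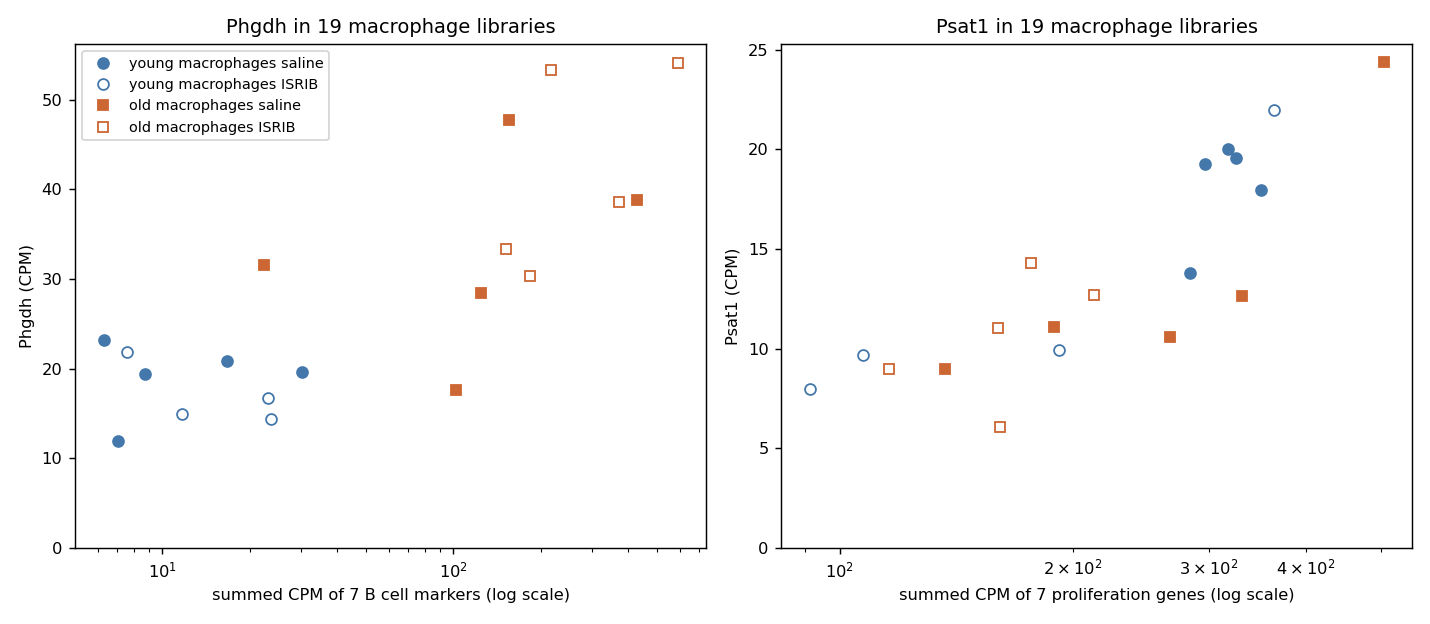
Each point is 1 of 19 macrophage libraries, with Phgdh (CPM) against the summed CPM of 7 B cell markers on a log axis at left, and Psat1 (CPM) against the summed CPM of 7 proliferation genes on a log axis at right. Over the 19 libraries, which share age and treatment groups, Phgdh has r = 0.79 with the B cell sum. Psat1 has r = 0.84 with the proliferation sum. Young saline replicate 2 has the lowest B cell sum, 6.30 CPM, and the highest Phgdh of the young libraries, 23.2 CPM.

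The contrast between cell types was larger than that with age. Markers of other cells differed with it too. Epithelial markers summed to 16.8 to 38.4 CPM in macrophage libraries, and 6 of 6 were higher than in monocytes in young and 5 of 6 in old saline mice. Endothelial markers summed to 114 to 265 CPM in macrophages and 3.29 to 20.5 CPM in monocytes, where 1 of 5, Vwf, was higher at each age, at 112 to 189 CPM in young saline macrophages. The part of other cells in the cell type differences was not tested. Young saline monocytes had 0, 0.55, 1.03, 0.61 and 0.72 CPM of Phgdh, and old saline monocytes had 2.66, 0.093, 1.0, 0.34 and 2.33 CPM. No macrophage library overlapped a monocyte library of the same age and treatment. In saline mice Phgdh was higher in macrophages by 5.03 ± 0.56 in the young (log2, SE; edgeR adjusted p = 4.68e-10) and by 4.75 ± 0.50 in the old (edgeR adjusted p = 1.09e-10). The pooled counts, 856 against 23 in the young and 1495 against 56 in the old, gave ratios of 33.98 (95% counting interval 22.5 to 53.9) and 28.8 (22.1 to 38.4) after scaling for depth. Counting intervals cover counting error only. The saline age difference of Phgdh was not shown to differ between macrophages and monocytes, at -0.28 ± 0.76 (log2, SE, edgeR adjusted p = 0.945). In monocytes under saline that age difference was 1.13 ± 0.88 on few counts (log2, SE, edgeR adjusted p = 0.772).

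Psat1 (chromosome 19, 15904678 to 15947337) and Psph (chromosome 5, 129765558 to 129787449) encode the remaining steps from phosphoglycerate to serine, the aminotransferase and the phosphatase. Neither was called with age or with ISRIB in macrophages. Psat1 in young saline macrophages was 18.0, 19.6, 20.02, 19.2 and 13.8 CPM, and in young ISRIB macrophages it was 7.99, 9.70, 21.97 and 9.96 CPM. In old saline macrophages it was 12.7, 24.4, 8.97, 10.6 and 11.1 CPM, and in old ISRIB macrophages 14.3, 8.99, 12.7, 11.02 and 6.07 CPM. Young saline libraries formed a tight group, and each of the young ISRIB and old saline groups held 1 library far above the rest. The averaged age difference was -0.31 ± 0.21 (log2, SE; edgeR adjusted p = 0.460) and the averaged ISRIB difference was -0.45 ± 0.21 (edgeR adjusted p = 0.275). Without young ISRIB replicate 3 the averaged ISRIB difference was -0.66 (edgeR adjusted p = 0.0440).

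The level of Psat1 moved with that of proliferation genes over the 19 macrophage libraries (Pearson r = 0.84, Spearman rho = 0.85, and r = 0.78 without the 2 libraries farthest from the median), given as a description of libraries from 4 groups. Psat1 also had r = -0.80 with macrophage markers, -0.79 with the sum of endothelial markers and 0.69 with monocyte markers. In young saline macrophages that endothelial sum was mostly Vwf. Young ISRIB replicate 3 had 364 CPM of the 7 proliferation genes against 91.5, 107 and 192 CPM in the other young ISRIB libraries, and old saline replicate 2 had 504 CPM against 137 to 330 CPM in the rest of its group. The part of other cells and of proliferation in the Psat1 values was not tested. The 2 genes whose pattern was most like that of Psat1 among 9576 candidates were Cenpa, a centromere histone (r = 0.90), and Cdkn2c, a cell cycle inhibitor (r = 0.89). For Phgdh they were Col4a2, a basement membrane collagen (r = 0.87), and Cyb561a3, a lysosomal cytochrome (r = 0.87).

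Psat1 was 12.7 to 31.9 CPM in monocytes and 6.07 to 24.4 CPM in macrophages, with medians of 17.9 and 12.7 CPM, so the ranges overlapped. Its difference between macrophages and monocytes was -0.34 ± 0.24 in young (log2, SE; edgeR adjusted p = 0.218) and -0.39 ± 0.24 in old saline mice (edgeR adjusted p = 0.164). The old value passed the threshold without old saline macrophage replicate 2, at -0.71 (edgeR adjusted p = 0.00879), and in limma voom (adjusted p = 0.04997). Psph was 5.26 to 12.5 CPM in macrophages and 1.84 to 6.75 CPM in monocytes, higher in macrophages by 0.93 ± 0.28 in young (log2, SE; edgeR adjusted p = 0.00425) and 0.95 ± 0.28 in old mice (edgeR adjusted p = 0.00343). Psph values are uncertain, since 452 bases of its exons, 10.4%, overlap Cct6a on the other strand and the strand setting of the counting is not given in the sources used here.

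Shmt2 (chromosome 10, 127517123 to 127522444) and Mthfd2 (chromosome 6, 83305691 to 83325908) belong to the mitochondrial one-carbon pathway, in which SHMT2 turns serine into glycine and MTHFD2 oxidises the folate-bound carbon that results. They differed in opposite directions between the cell types. Shmt2 was 16.6 to 32.9 CPM in the macrophage libraries and 5.30 to 14.9 CPM in the monocyte libraries, so the ranges did not overlap. It was higher in macrophages by 1.10 ± 0.22 in young (log2, SE; edgeR adjusted p = 4.58e-05) and 1.19 ± 0.22 in old saline mice (edgeR adjusted p = 1.35e-05). Mthfd2 was lower. Young saline macrophages had 19.98, 16.7, 7.48, 12.2 and 17.1 CPM of it, and young saline monocytes 31.04, 31.3, 38.2, 49.9 and 28.9 CPM. In the old it was 19.8, 20.1, 15.9, 12.2 and 14.5 CPM in saline macrophages and 32.9, 20.5, 28.5, 30.7 and 26.5 CPM in saline monocytes. The groups did not overlap at either age, although the highest old macrophage library, at 20.1 CPM, came close to the lowest old monocyte library, at 20.5 CPM. The difference was -1.28 ± 0.21 in the young (log2, SE; edgeR adjusted p = 1.50e-06) and -0.75 ± 0.21 in the old (edgeR adjusted p = 0.00189). Whether age changed that gap was tested: the difference between the ages was 0.53 ± 0.29 (log2, SE), which did not pass (edgeR adjusted p = 0.516).

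Aldh18a1 (chromosome 19, 40550257 to 40588463) and Pycr1 (chromosome 11, 120635712 to 120643769) encode the first enzyme of proline synthesis from glutamate and a final one. Aldh18a1 was 24.0 to 46.1 CPM in macrophages and 8.75 to 19.2 CPM in monocytes, with no overlap. It was higher in macrophages by 1.45 ± 0.19 in young (log2, SE; edgeR adjusted p = 1.77e-08) and 1.43 ± 0.19 in old saline mice (edgeR adjusted p = 2.70e-08). Pycr1 was near the limit of detection. It had 0 counts in 12 of 19 macrophage libraries and 2 of 20 monocyte libraries, and did not pass the filter on low counts within macrophages. Pooled counts were 2 in young saline macrophages against 34 in young saline monocytes, a ratio of 18.6 in favour of monocytes (95% counting interval 4.77 to 160), and edgeR over all 39 libraries called the difference (adjusted p = 0.00679). In old saline mice they were 12 against 54, a ratio of 4.17 (2.20 to 8.56), which was not called (edgeR adjusted p = 0.0785) and passed in limma voom (adjusted p = 0.0184), without old saline macrophage replicate 5 (edgeR adjusted p = 0.0430) and without the 3 B cell-rich libraries (edgeR adjusted p = 0.0440). Pycrl, which encodes another reductase of that final step, was higher in young saline macrophages than in young saline monocytes by 0.53 ± 0.22 (log2, SE; edgeR adjusted p = 0.0335).

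Asns (chromosome 6, 7675169 to 7693254), which makes asparagine from aspartate and glutamine and is a commonly used readout of ATF4 activity, was low throughout, with 0 to 47 counts per library. In young saline macrophages it was 0.34, 2.36, 0.84, 0.44 and 2.51 CPM, in young ISRIB macrophages 1.97, 0.72, 1.86 and 4.34 CPM. In old saline macrophages it was 1.44, 1.41, 3.49, 0.57 and 4.96 CPM, and in old ISRIB macrophages 2.84, 5.07, 1.99, 2.96 and 2.90 CPM. All 4 macrophage groups overlapped. The averaged age difference was 0.67 ± 0.44 (log2, SE; edgeR adjusted p = 0.466) and the averaged ISRIB difference 0.54 ± 0.44 (edgeR adjusted p = 0.586), so no difference was detectable at this depth. In monocytes it was 0 to 2.11 CPM. Old saline macrophages exceeded old saline monocytes by 2.00 ± 0.77 (log2, SE; edgeR adjusted p = 0.0254), with pooled counts of 113 against 30, a ratio of 4.07 (95% counting interval 2.70 to 6.31). That call was lost without old saline monocyte replicate 1 or 3 or old saline macrophage replicate 3 or 5, where the edgeR adjusted p reached 0.0966, and without the 3 B cell-rich libraries (edgeR adjusted p = 0.111). In young saline mice the difference was 0.28 ± 0.75 (edgeR adjusted p = 0.764).

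Slc7a5 (chromosome 8, 121881150 to 121907694) and Slc3a2 (chromosome 19, 8706882 to 8723369) encode the 2 chains of the large neutral amino acid transporter LAT1-CD98, which brings in leucine and other essential amino acids in exchange for glutamine. Both were higher in macrophages. Slc7a5 in young saline macrophages was 55.7, 48.4, 42.8, 51.7 and 50.8 CPM, and in young saline monocytes 9.15, 11.04, 9.23, 11.5 and 14.99 CPM. In old saline macrophages it was 44.6, 42.1, 53.2, 23.6 and 36.8 CPM, and in old saline monocytes 10.4, 27.02, 16.6, 18.6 and 13.4 CPM. The cell types were apart in the young and overlapped in the old, through macrophage replicate 4 and monocyte replicate 2. The difference was 2.16 ± 0.25 in young (log2, SE; edgeR adjusted p = 1.81e-09) and 1.22 ± 0.24 in old saline mice (edgeR adjusted p = 4.68e-05). The change in that gap with age, -0.94 ± 0.35, did not pass (edgeR adjusted p = 0.269). Among the members edgeR called 0 of 10 in that test, against 0.250% of all genes (0.147% higher and 0.103% lower), and DESeq2 and limma voom called 0. By edgeR 1 member (Slc7a5) had an unadjusted p under 0.05, against 1484 of 13587 genes.

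Slc3a2 was the steadiest member in macrophages, at 243 to 328 CPM over 19 libraries with a coefficient of variation of 8.93%, and it was 69.7 to 180 CPM in monocytes. It was higher in macrophages by 1.26 ± 0.16 in young (log2, SE; edgeR adjusted p = 7.55e-09) and 1.59 ± 0.16 in old saline mice (edgeR adjusted p = 3.34e-11). In macrophages its age and ISRIB differences were small against a small error: the averaged age difference was 0.059 ± 0.062 and the averaged ISRIB difference -0.068 ± 0.062 (log2, SE; edgeR adjusted p = 0.690 and 0.638). Although the 2 chains work as 1 transporter, their levels had r = -0.21 over the 19 macrophage libraries.

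**Figure D3:**
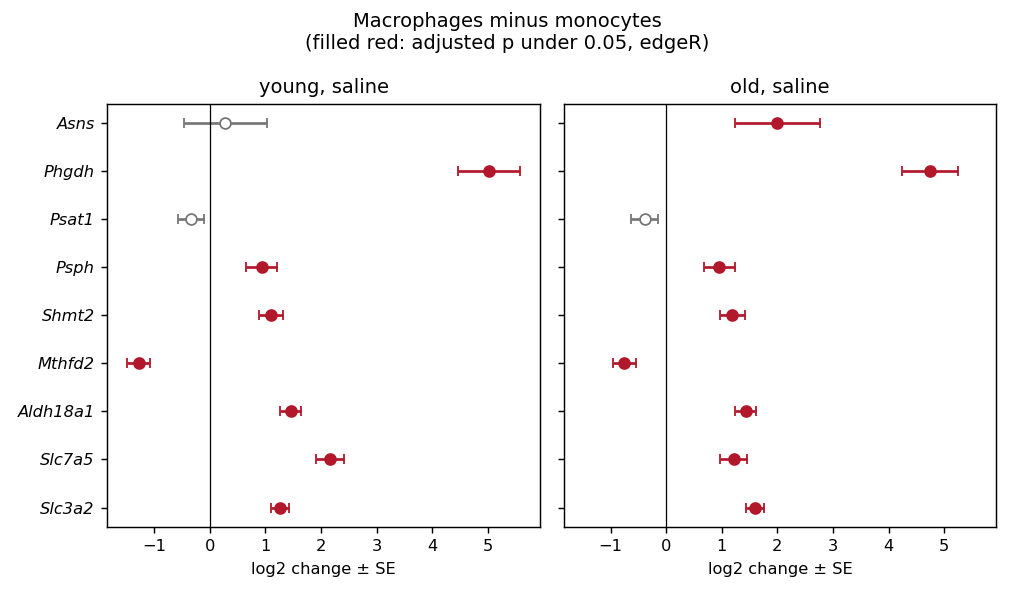
Difference between macrophages and monocytes (log2, ± SE, edgeR) for 9 of the 10 genes in young saline mice (left) and old saline mice (right), filled red where the adjusted p was under 0.05. Pycr1 is left out because 2 counts lie behind its young macrophage value. Phgdh lies farthest to the right at 5.03 and 4.75, and Mthfd2 is the 1 plotted gene called to the left of 0 in both.

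Counted over the set, 6 of 10 members were higher and 2 of 10 lower in young saline macrophages than in young saline monocytes, against 60.0% of 13587 genes called in either direction (31% higher and 29% lower). In old saline mice 7 were higher and 1 lower, against 57.0% (29.7% higher and 27.3% lower). The set was not tested as a whole. The 6 genes higher in the young were Phgdh, Psph, Shmt2, Aldh18a1, Slc7a5 and Slc3a2, and the old added Asns. The lower ones were Mthfd2 and Pycr1 in the young and Mthfd2 in the old. The median log2 difference of the 10 members was 1.02 in the young and 1.20 in the old, beside 0.0073 and 0.0015 over all genes tested.

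Against saline, edgeR called no member with ISRIB in either kind of cell. In young macrophages edgeR called 0 of 9 tested members, against 0% of 12171 genes, and in old macrophages it also called 0 of 9 against 0%. At an unadjusted p under 0.05 by edgeR there were 0 members in each, against 1513 genes in the young and 1112 in the old. DESeq2 and limma voom called 0 members in each. Averaged over both ages 0 of 9 were called against 0.830% of genes (0.452% higher and 0.378% lower). There 1 member (Psat1) had an unadjusted p under 0.05, against 2019 of 12171 genes, and DESeq2 and limma voom again called 0 members. The member log2 differences ran from -0.55 (Psat1) to 0.70 (Asns) in young and from -0.34 (Psat1) to 0.39 (Asns) in old macrophages, with medians of -0.069 and 0.014. Mthfd2 had the next largest value in the young, 0.44 ± 0.22 (log2, SE; edgeR adjusted p = 0.413), with overlapping ranges of 7.48 to 19.98 CPM under saline and 16.3 to 23.9 CPM under ISRIB. These tests do not show that ISRIB left the genes unaltered, since the standard errors of the members other than Slc3a2 were 0.14 to 0.65 on the log2 scale at a single age.

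**Figure D4:**
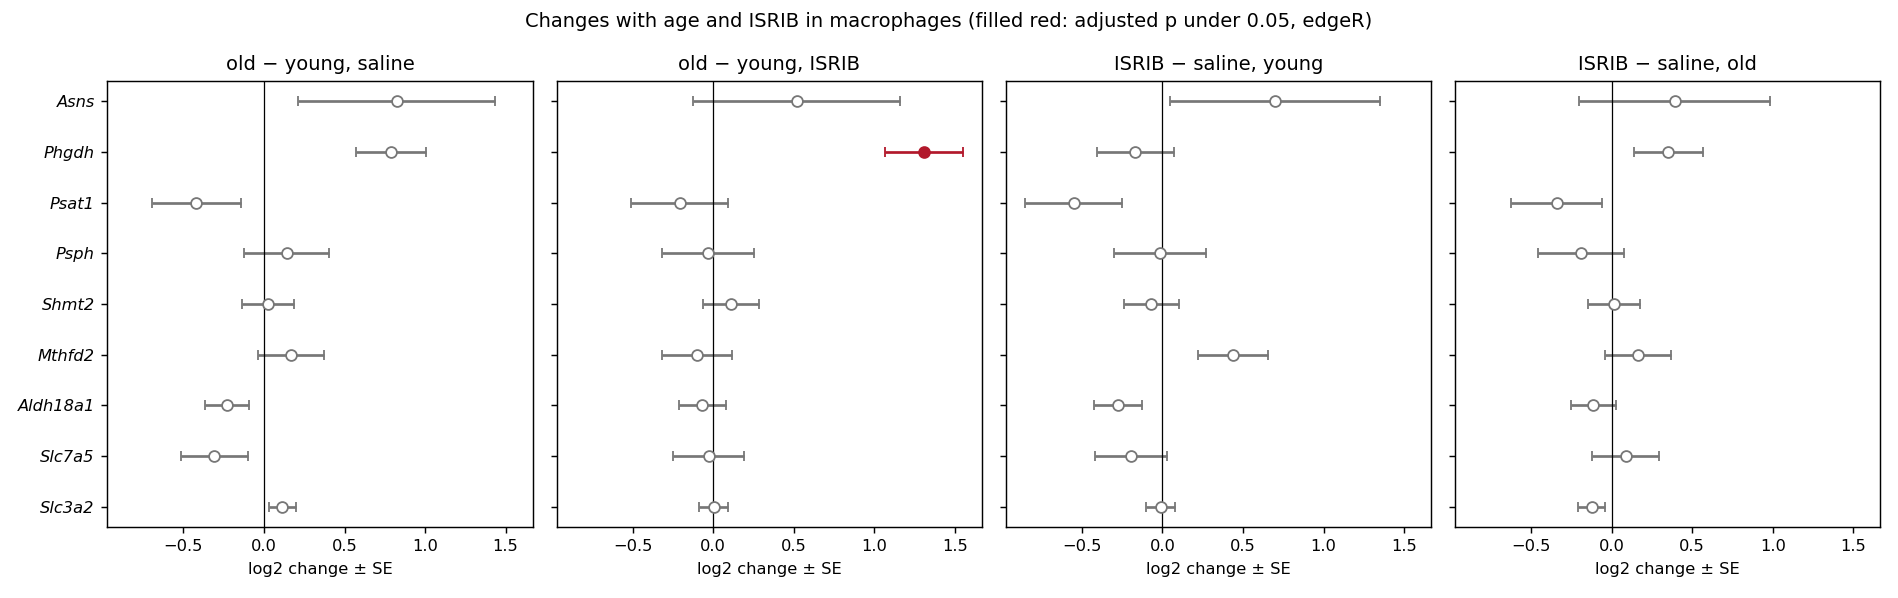
Log2 differences (± SE, edgeR) of 9 of the 10 genes between macrophage groups, from left to right old minus young under saline, old minus young under ISRIB, ISRIB minus saline in young and ISRIB minus saline in old mice, filled red where the adjusted p was under 0.05. Pycr1 did not pass the filter on low counts. Phgdh under ISRIB, at 1.31, is the 1 filled point.

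With age, the other 8 tested members stayed uncalled in macrophages under saline, under ISRIB and averaged. Under saline their differences ran from -0.42 (Psat1) to 0.82 (Asns), and the median of all 9 was 0.11, beside 0.0041 over all genes. Under ISRIB they ran from -0.21 (Psat1) to 0.52 (Asns), and the median was -0.029, beside 0.0055.

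In monocytes 10 of 10 members passed the filter and edgeR called 0 of them with age, against 0.0247% of 12170 genes under saline, 0% under ISRIB and 0.123% averaged over both. At an unadjusted p under 0.05 by edgeR there were 1, 2 and 1 members, against 1072, 803 and 1003 genes. DESeq2 and limma voom called 0 members in all 3. Slc7a5 had the largest averaged value relative to its error, 0.63 ± 0.18 (log2, SE; edgeR adjusted p = 0.225). It was 9.15 to 15.2 CPM in the 10 young and 10.4 to 34.4 CPM in the 10 old monocyte libraries, and the highest of these, old ISRIB replicate 5, was also the library with 79.1 CPM of epithelial markers. The same library had the highest Asns (2.11 CPM) and Phgdh (4.68 CPM) of its group, and the part of those cells in these values was not tested. ISRIB against saline also gave 0 called members of 10 in young, old and averaged monocytes by edgeR, DESeq2 and limma voom. The share of all genes called by edgeR was 0% in each. At an unadjusted p under 0.05 by edgeR there were 1, 0 and 1 members, against 809, 918 and 911 of 12170 genes. The test of whether ISRIB acted differently in old and young monocytes called 0 of 10 by all 3 tools, against 0% of genes by edgeR. There 1 member, Slc3a2, had an unadjusted p under 0.05, at 0.72 ± 0.27 (log2, SE, edgeR adjusted p = 0.638), against 865 of 12170 genes.

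The members did not vary as 1 block between libraries. Over 36 pairs of the 9 genes tested in macrophages the median Pearson r of log2 CPM was -0.04 (range -0.47 to 0.70, 19 libraries), and 4 pairs exceeded 0.5. The closest pair was Aldh18a1 and Slc7a5 at 0.70, or 0.67 within groups, and the most opposed was Shmt2 and Slc7a5 at -0.47. Phgdh and Asns had r = 0.53, or 0.40 within groups, whereas Phgdh and Psat1 had r = -0.30. Over 45 pairs in 20 monocyte libraries the median was -0.0015 (range -0.57 to 0.46), and the pair Aldh18a1 and Slc7a5 stood at -0.57. These are descriptions over libraries that share groups and, for Asns and Pycr1, rest on few counts.

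Atf4 mRNA itself was higher in monocytes. Young macrophages had 102 ± 12.6 CPM with saline (SD, n = 5) and 118 ± 24.8 CPM with ISRIB (SD, n = 4). Old macrophages had 127 ± 11.8 CPM with saline and 140 ± 12.0 CPM with ISRIB (SD, n = 5 each). In monocytes the means were 202 ± 55.8 and 174 ± 26.5 CPM in young saline and ISRIB mice and 171 ± 28.1 and 262 ± 81.7 CPM in the old (SD, n = 5 each). Within macrophages no difference passed the test: averaged over treatments the age difference was 0.28 ± 0.08 (log2, SE; edgeR adjusted p = 0.0518), and the averaged ISRIB difference was 0.17 ± 0.08 (edgeR adjusted p = 0.286). Against monocytes, macrophages had less Atf4 mRNA, with a difference of -0.98 ± 0.17 in young (log2, SE; edgeR adjusted p = 3.79e-06) and -0.43 ± 0.17 in old saline mice (edgeR adjusted p = 0.0264).

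Among 16 stress response genes outside amino acid metabolism (Atf4 included), 13 were tested in macrophages. With age under saline 3 were higher and 0 lower, against 0.937% and 0.222% of all genes: Gdf15, a secreted stress cytokine, by 1.46 ± 0.37 (log2, SE), Atf5, a related transcription factor, by 1.40 ± 0.35, and Ppp1r15a, the regulatory subunit of an eIF2 phosphatase, by 1.25 ± 0.19 (edgeR adjusted p = 0.0464, 0.0440 and 9.79e-04). Under ISRIB edgeR called 0 of 13, against 0.937% of all genes, and 2 had an unadjusted p under 0.05, against 1485 of 12171 genes. Averaged over treatments 4 were higher and 0 lower, against 3.12% and 1.74% of all genes, which added Ddit4, an inhibitor of mTORC1, at 1.55 ± 0.44 (log2, SE; edgeR adjusted p = 0.0404). For ISRIB against saline averaged over both ages, Atf5 was the 1 gene of the 13 called, against 0.830% of all genes (0.452% higher and 0.378% lower). It was higher by 1.02 ± 0.24 (log2, SE, edgeR adjusted p = 0.0429). The B cell and monocyte marker sums given above moved in the same age comparisons, and their part was not tested. Between cell types 2 of 13 were higher and 6 lower in young, and 3 higher and 6 lower in old saline macrophages, beside 60.0% and 57.0% of all genes called. The medians of the 13 were -0.41 and -0.30 (log2), beside 0.0073 and 0.0015 over all genes. Ddit4 was lower by -6.82 ± 0.52 in the young, with pooled counts of 43 against 4218, a ratio of 107 in favour of monocytes (95% counting interval 79.6 to 149). Ppp1r15a was lower by -3.61 ± 0.24 and Atf3 by -3.54 ± 0.36, while Gdf15 was higher by 4.46 ± 0.57 (log2, SE, young, edgeR adjusted p = 5.85e-16, 4.16e-11 and 1.02e-08). In the old the values were 5.66 ± 0.54 for Gdf15, -4.78 ± 0.45 for Ddit4, -2.46 ± 0.23 for Ppp1r15a and -2.21 ± 0.34 for Atf3 (log2, SE; edgeR adjusted p = 1.12e-11, 8.14e-12, 4.74e-12 and 4.81e-07).

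Of 29 other enzymes of serine, one-carbon, proline and related pathways, 24 were tested. In macrophages edgeR called 0 of them with age under saline, under ISRIB or averaged, against 1.16%, 0.937% and 4.86% of all genes. With ISRIB in young, in old and averaged it also called 0, against 0%, 0% and 0.830%. At an unadjusted p under 0.05 there were 4 in each of the 3 age contrasts, against 1545, 1485 and 2162 of 12171 genes. With ISRIB there were 3, 5 and 4, against 1513, 1112 and 2019 genes. Against monocytes 12 were higher and 4 lower in young, and 14 higher and 5 lower in old saline macrophages, beside 60.0% and 57.0% of all genes called. The medians of the 24 were 0.30 and 0.78 (log2). Among the folate enzymes of nucleotide synthesis, Tyms, thymidylate synthase, was higher by 3.10 ± 0.43 and the cytosolic Mthfd1 by 2.32 ± 0.19 (log2, SE, young; edgeR adjusted p = 8.04e-08 and 1.72e-13). Prodh, which breaks proline down, was higher by 1.504 ± 0.42 (edgeR adjusted p = 0.00240). In the old Tyms was higher by 3.52 ± 0.44, Mthfs, which returns a folate to the active pool, by 2.35 ± 0.40 and Gpt2, a mitochondrial alanine aminotransferase, by 2.12 ± 0.27 (log2, SE; edgeR adjusted p = 7.89e-09, 4.52e-06 and 1.73e-08). Proliferation genes summed to 283 to 350 CPM in young saline macrophages and 21.1 to 54.2 CPM in young saline monocytes, and their part in these values was not tested. Mthfd1l, the mitochondrial partner of Mthfd2, was lower in old saline macrophages by -1.40 ± 0.25 (log2, SE; edgeR adjusted p = 1.08e-05).

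Among 20 other amino acid transporters, 16 were tested in macrophages and 17 over all libraries. With age under saline edgeR called 0, against 1.16% of all genes, and 4 had an unadjusted p under 0.05, against 1545 of 12171 genes. Under ISRIB 2 were lower, against 0.493% of all genes lower and 0.937% in either direction. They were Slc43a2, a carrier of large neutral amino acids, by -0.51 ± 0.10, and Slc36a1, a proton-coupled carrier, by -0.39 ± 0.09 (log2, SE, edgeR adjusted p = 0.0102 and 0.0234). Averaged over treatments 2 were higher and 1 lower, against 3.12% and 1.74% of all genes. Slc1a3, a glutamate transporter, led at 3.52 ± 0.74 (log2, SE, edgeR adjusted p = 0.00516). It had 24 and 12 counts in young saline and ISRIB macrophages and 240 and 243 counts in the old. Slc16a10 was higher by 0.26 ± 0.07 and Slc43a2 lower by -0.29 ± 0.07 (edgeR adjusted p = 0.0382 and 0.0138). Between cell types 7 were higher and 5 lower in young, and 7 higher and 4 lower in old saline macrophages, beside 60.0% and 57.0% of all genes called. The medians of the 17 were 0.14 and 0.10 (log2). Slc7a2, a cationic amino acid transporter that supplies arginine, had 36765 counts in young saline macrophages and 34 in young saline monocytes, a ratio of 987 (95% counting interval 706 to 1426). Slc1a3 had 24 counts against 0, for which the 95% counting interval of the ratio begins at 5.49. Slc7a11, the cystine carrier that also pairs with Slc3a2, was higher by 2.27 ± 0.42 (log2, SE; edgeR adjusted p = 1.43e-05), and Slc7a8, another light chain of CD98, by 2.12 ± 0.17 (edgeR adjusted p = 7.41e-14). In the old Slc7a2 had a ratio of 1234 (95% counting interval 869 to 1817) and Slc1a3, with 240 counts against 3, one of 86.4 (29.2 to 422), while Slc7a11 was higher by 3.71 ± 0.45 and Slc7a8 by 1.85 ± 0.17 (log2, SE; edgeR adjusted p = 3.71e-09 and 2.30e-12).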

How the data were processed

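Gene expression was measured by polyA RNA sequencing of 39 libraries in 8 groups. The deposited table holds counts: every value is a whole number, library totals differ, and 18236 of the genes listed have no count in any library. Reads were handled with bcl2fastq 2.19.1, FastQC, Trimmomatic 0.36, STAR 2.6.0 and HTSeq 0.11.2 on mm10, per the submitters' processing notes. Which annotation and strand setting the counting used is not given in the sources used here. Of 43430 gene IDs, 42462 had a symbol in GENCODE vM21 (GRCm38), which also gave positions and exon lengths.

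The counts were tested with edgeR 4.0.16 in R 4.3.3 (quasi-likelihood test, TMM, filterByExpr with a minimum count of 10 and total of 15, Benjamini-Hochberg adjustment over all genes tested, called at an adjusted p under 0.05), with 1 mean per group and no covariate. The 19 macrophage libraries (12171 genes), the 20 monocyte libraries (12170) and, for comparisons of cell types, all 39 (13587) were fitted apart. The script was tested on simulated data. Alternatives were RLE and upper quartile factors, no filter, DESeq2 1.42.0, limma 3.58.1 voom, a replicate block, other sets of libraries and leaving out each library. Leaving out 3 libraries rich in B cell markers was chosen after seeing the data. For correlations a prior count of 2 was added before the log2 of CPM, and like genes needed a mean of at least 5 CPM. Counting intervals of pooled ratios have a confidence level of 95%.

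All 10 members and Atf4 are named whatever their values, and of each context list up to 4 called genes per comparison, those with the largest change; Mthfd1l, Pycrl and the genes named as markers stand outside that rule. An item that the rule would name is not reported here. The members, lists and tests were chosen with earlier results of these data known.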

Additional observations from a re-analysis of the deposited data

Results flagged for a closer look

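In 6 of 80 sets of a gene and a group, 1 library stood apart from the rest of its group by Dixon's test at the 95% level, and chance alone gives about 1 in 20. Psat1 was 21.97 CPM in young ISRIB macrophage replicate 3 against 7.99 to 9.96 CPM in the other 3 libraries, and 24.4 CPM in old saline macrophage replicate 2 against 8.97 to 12.7 CPM in the other 4. Both libraries had the highest proliferation gene sums of their groups, at 364 and 504 CPM. Asns was 2.11 CPM in old ISRIB monocyte replicate 5 against 0.223 to 0.639 CPM in the others, in the library with 79.1 CPM of epithelial markers. Psph was 5.66 CPM in old ISRIB macrophage replicate 5, below the 8.49 to 9.27 CPM of the others. Shmt2 was 14.9 CPM in young saline monocyte replicate 1 against 8.74 to 10.2 CPM. Pycr1 was 0.126 CPM, 2 counts, in young saline macrophage replicate 5 and 0 in the others of that group. With the others at 0, any count in 1 library would be flagged, so that flag carries no information on spread.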

How the results depend on the processing

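Over 1185 member log2 changes under alternatives that left out no chosen library, 1178 kept their side of the threshold, 1 was lost and 6 were gained, and none of the called values reversed; 27 values called in neither fit changed sign. With 1 library left out in each of 59 refits, 4 of 2255 values were lost, 4 were gained and 189 uncalled values changed sign. The count of members called with age in saline macrophages was 0, and 1 (Phgdh) with no filter, with DESeq2 and with the replicate block (adjusted p = 0.0338), and 0 to 1 with single libraries left out. With age in ISRIB macrophages it was 1, and 0 with all 39 libraries or without the 3 libraries rich in B cell markers. For ISRIB averaged over both ages in macrophages it was 0, and 0 to 1 over the omissions. The cause was not tested. Over 57 pairs of libraries with the same replicate number r was -0.19 to 0.24 and 6 exceeded 0.1. Such weak correlations cannot settle whether replicate numbers pair the libraries or share a batch. With the block, 2 calls changed among 163 member values, Phgdh as above and Pycr1 between old saline cell types (adjusted p = 0.0485). Fits of the groups compared alone were not run where they equal the main fit. The counts of Asns and Pycr1 limit what can be said of either. Over all genes, the number called differed by more than 1.5 times between settings. With age it was 141 under saline and 114 under ISRIB by edgeR, 294 and 260 by DESeq2, 468 and 405 with no filter, and 60 and 50 with all 39 libraries; averaged it was 592, 975 with no filter and 340 with all 39. For ISRIB averaged over ages it was 101 by edgeR, 440 by DESeq2, 169 by limma voom, 640 with no filter, 343 with the replicate block and 17 with all 39. For ISRIB at a single age it was 0 by edgeR and 105 in the young and 43 in the old by DESeq2.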
